A study of Mus musculus with 6 samples.

Results

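Vcl, Tln1, Tln2, Flna, Flnc, Ilk, Parva, Zyx and Pxn encode proteins that tie integrin adhesion receptors to the actin cytoskeleton. These 9 genes were taken by their symbols from the deposited count table, in which each symbol matched 1 of 55804 rows. The RNA came from C2C12, an established line of mouse myoblasts, which stop dividing and fuse into myotubes when serum is withdrawn. The Ctrl-gRNA group (3 libraries, genotype labelled WT, the controls below) carried a control guide RNA, and the Prr33-gRNA group (3 libraries, genotype labelled PRR33 knocked down) came from a line in which Prr33 had been targeted by CRISPR/Cas9. Both groups were grown in 20% fetal bovine serum, moved to 2% horse serum and collected at day 3 of differentiation. How many lines were made per guide, and whether replicate libraries stem from separate cultures, is not stated in the labels. The p-values below therefore measure the spread between libraries, which may be technical, and an effect of the guide cannot be told apart from a difference between lines. The comparison addresses how expression differs between differentiating control cells and cells in which Prr33 was targeted.

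At a focal adhesion, the heads of talin (Tln1, Tln2) bind the tails of integrin beta chains, and the talin rod binds actin and, when stretched, vinculin (Vcl), which adds further links to actin. Integrin-linked kinase (Ilk), a pseudokinase, forms a complex with PINCH and parvin (Parva) at the same tails, paxillin (Pxn) serves as a scaffold for signalling enzymes, zyxin (Zyx) recruits proteins that extend actin filaments, and filamins (Flna, Flnc) cross-link actin and bind integrins. In muscle fibres the same proteins assemble at costameres, the rib-like sites that anchor the Z-discs of the outer myofibrils to the plasma membrane, beside the dystrophin complex. Filamin C is the muscle-enriched filamin, and talin 2 is the talin that becomes more prominent as striated muscle matures.

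Promoter windows from RefSeq (GRCm38.p6, 250 bases before to 50 after a transcript start) were found for 6 of the 9 genes, namely Vcl, Tln1, Flna, Flnc, Ilk and Zyx. The CArG box, the motif of serum response factor (a regulator of actin cytoskeleton genes), was searched on both strands because vinculin is a textbook target of that factor. It was present in the Vcl window alone among these 6 genes, and in 1.63% of all 32851 windows. The TEAD core GGAATG, searched on both strands, was present in the windows of Vcl, Flna and Flnc and in 14.7% of all windows. An E-box (CANNTG, the motif of the MyoD family) was present in windows of Tln1 and Ilk and in 72.3% of all windows, and the MEF2 motif was in none of these genes' windows and in 3.19% of all windows. The 250 bases upstream are shown for Vcl, which had the lowest adjusted p among the linkers, and for the filamin pair, of which Flnc was called and Flna was not. Capitals mark the CArG box and the TEAD core in either orientation, which did not overlap. The CArG box of Vcl began 227 bases upstream of the start, and the TEAD cores began 143 bases upstream in Vcl, 104 in Flnc and 146 in Flna. A match to a motif is a description of the letters and not evidence that a factor binds there.
Vcl, chr14:20929148-20929397, plus strand: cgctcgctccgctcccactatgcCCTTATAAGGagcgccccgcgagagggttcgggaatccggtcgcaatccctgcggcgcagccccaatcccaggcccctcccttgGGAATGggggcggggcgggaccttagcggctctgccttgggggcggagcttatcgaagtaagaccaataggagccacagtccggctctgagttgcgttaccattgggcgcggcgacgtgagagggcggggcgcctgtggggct
Flnc, chr6:29433006-29433255, plus strand: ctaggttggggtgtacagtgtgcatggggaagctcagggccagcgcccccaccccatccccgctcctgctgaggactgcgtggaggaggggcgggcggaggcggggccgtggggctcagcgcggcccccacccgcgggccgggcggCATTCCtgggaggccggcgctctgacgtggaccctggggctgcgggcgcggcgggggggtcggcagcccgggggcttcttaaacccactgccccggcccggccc
Flna, chrX:74246535-74246784, minus strand (the RefSeq start lies inside the gene span of the count table): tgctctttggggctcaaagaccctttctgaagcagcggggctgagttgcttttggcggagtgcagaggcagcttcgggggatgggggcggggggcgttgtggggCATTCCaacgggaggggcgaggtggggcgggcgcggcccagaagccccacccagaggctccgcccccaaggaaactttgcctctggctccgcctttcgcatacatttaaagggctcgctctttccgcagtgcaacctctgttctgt

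Library totals ran from 17006381 to 19471762 counts, and the 9 genes took 0.538% to 0.568% of the counts in Ctrl-gRNA libraries and 0.458% to 0.479% in Prr33-gRNA libraries. Prr33 itself, the targeted gene, was lower in the Prr33-gRNA libraries, at 43.8 ± 1.82 CPM against 58.6 ± 3.76 CPM (SD, n = 3 each; log2 fold change -0.42, SE 0.06), where CPM is the count scaled to the effective library size. The cells carried muscle markers: the summed level of 10 myogenic genes was 26271 to 26703 CPM in the controls against 14816 to 15587 CPM with the Prr33 guide, with 7 genes lower and 3 higher. Of 14 markers of endothelial, blood, fat, glial and epithelial cells, 9 had at most 3 counts in any library. The 14 summed to 3.45 to 4.61 CPM in the controls against 3.35 to 6.09 CPM with the Prr33 guide. The part of these marker differences in the results below was not tested. The libraries are bulk RNA, so fewer cells that had reached a stage of differentiation and less RNA per cell cannot be told apart in any result below.

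Of the 9 linkers, 6 were lower and 1 was higher in Prr33-gRNA, and 2 did not pass the test (edgeR quasi-likelihood test, Benjamini-Hochberg adjusted p below 0.05 over 14651 tested genes). Vcl, Tln1, Tln2, Flnc, Ilk and Zyx were lower, Parva was higher, and Flna and Pxn were not called. The test called 52.1% of all tested genes, 26.6% lower and 25.5% higher, and 67.6% of those averaging at least 50 CPM, a level that 8 of the 9 linkers reached. The 7 of 9 calls among the linkers (77.8%) are to be read against those shares. The 2 groups of libraries did not overlap for 7 linkers, as for 57.9% of tested genes. When calls also had to reach 0.5 in absolute log2 fold change, 3 linkers were called (Vcl, Ilk and Tln2), against 23.0% of tested genes. Which linkers pass this cut depends on the fit. Tln2 passed narrowly at -0.52 and was -0.43 under scaling by total count, while Flnc, at -0.48, reached -0.51 without Ctrl-gRNA replicate 3. The median log2 fold change (Prr33-gRNA over Ctrl-gRNA) of the linkers was -0.32. All genes had a median near 0. When libraries were scaled by total count alone, which raised the median of all genes by 0.09 and turned the split of calls from 49.0% to 61.7% higher, the linkers gave 5 lower and 1 higher. With chromosome 14, and so Vcl, left out, 5 were lower and 1 higher.

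**Figure D1:**
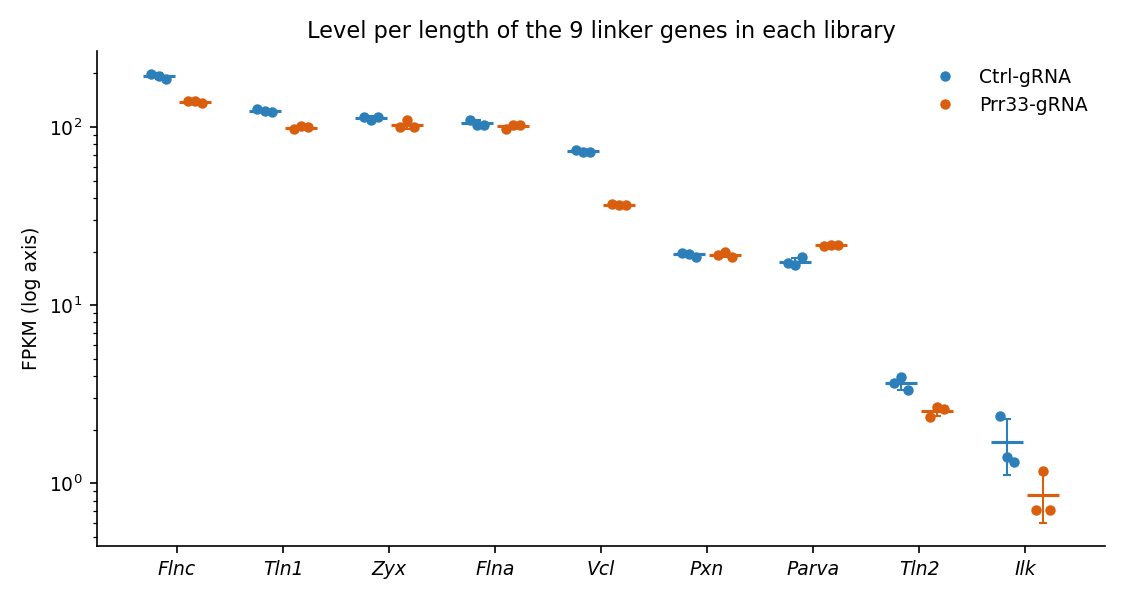
Deposited FPKM (counts scaled to gene length and library size) on a log axis for the 9 linker genes, ordered by the Ctrl-gRNA mean. Points are single libraries, horizontal bars are means and error bars are SD (n = 3); Flnc was highest in both groups, and Vcl libraries sat at 72.2 to 74.4 FPKM in the controls against 36.4 to 36.8 FPKM with the Prr33 guide.

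Per length of gene, Flnc was the most abundant linker in both groups, and Ilk had the lowest value. The rank of Ilk is uncertain, because 89.7% of its exonic bases lie in exons of opposite-strand genes. How reads there were counted is not given. In Ctrl-gRNA, levels followed the order Flnc (193 ± 7.35 FPKM, SD, n = 3), Tln1 (123 ± 3.03), Zyx (113 ± 2.44), Flna (105 ± 3.92), Vcl (72.9 ± 1.25), Pxn (19.3 ± 0.509), Parva (17.5 ± 0.968), Tln2 (3.64 ± 0.311) and Ilk (1.70 ± 0.590), with no overlap between neighbours in that order. In Prr33-gRNA, Flnc (139 ± 1.66 FPKM) led again, Vcl stood at 36.6 ± 0.221 FPKM, Tln2 at 2.55 ± 0.165 and Ilk at 0.862 ± 0.265. There Zyx (103 ± 5.31 FPKM), Flna (101 ± 3.56) and Tln1 (99.5 ± 2.13) overlapped, so their order is not resolved. Parva (21.7 ± 0.219 FPKM) stood above Pxn (19.2 ± 0.590) in every Prr33-gRNA library, the reverse of Ctrl-gRNA. The Vcl level was 59.1% of that of Tln1 in the controls against 36.8% with the Prr33 guide.

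Vcl (ENSMUSG00000021823, plus strand, chr14:20929398-21033676, mm10) had the lowest adjusted p of the linkers. Its libraries held 616, 597 and 594 CPM in the controls against 302.3, 301.0 and 300.0 CPM in Prr33-gRNA. The Prr33-gRNA libraries lay far below the controls, and the spread within either group was small beside that gap. On the log2 scale the change was -1.0 (SE 0.04; edgeR adjusted p = 7.48e-21), and a smaller absolute change was found for 88.9% of tested genes.

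Vcl lies on chromosome 14, where most genes were lower by a like amount. Among 400 tested protein-coding genes of that chromosome, 361 were lower and 10 higher. Their median change on the log2 scale was -0.90 (quartiles -1.15 and -0.66), and Vcl ranked 153 from the lowest. Its 28 tested protein-coding neighbours within 1 Mb had a median of -0.96, and 26 of them were lower. Elsewhere in the nuclear genome the median over 11656 such genes was 0.02. The change of Vcl therefore sat between the quartiles of its chromosome. The part of this chromosome-wide difference in the Vcl result was not tested. Ap3m1, an adaptor complex gene on the opposite strand, shares 2090 of the 8191 exonic bases of Vcl (25.5%) in GENCODE M21, and it had a log2 fold change of -0.76 (edgeR adjusted p = 1.45e-12).

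**Figure D2:**
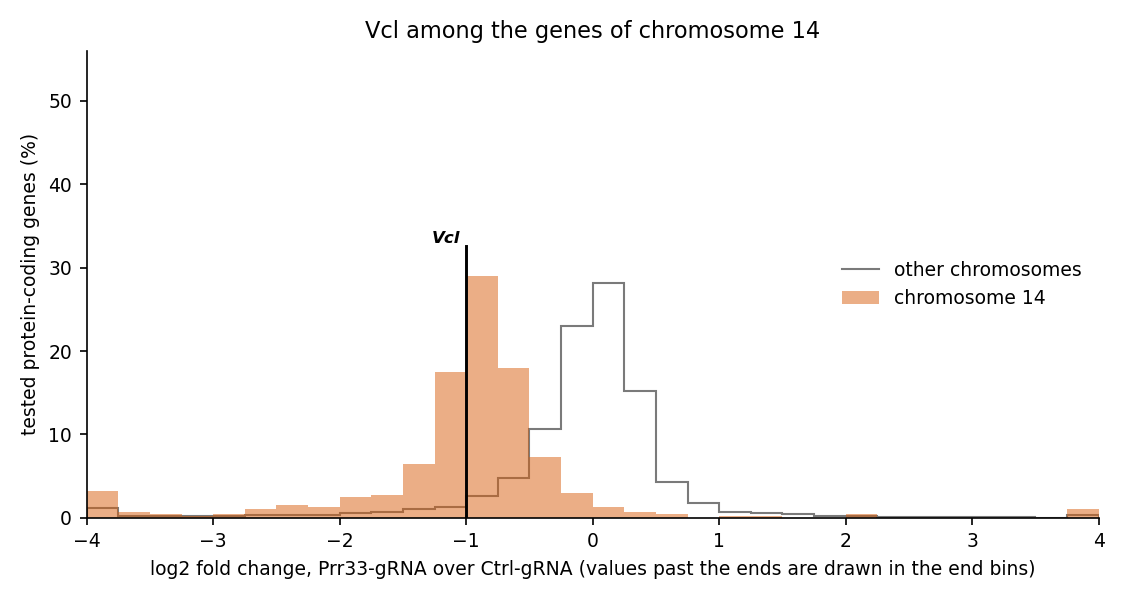
Share of tested protein-coding genes in bins of log2 fold change, for chromosome 14 (filled) and the other nuclear chromosomes (line). The vertical line marks Vcl, which at -1.0 stands inside the chromosome 14 distribution.

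Both talins were lower. Tln1 (ENSMUSG00000028465, minus strand, chr4:43531519-43562691), the broadly expressed talin, was measured at 1255, 1214 and 1189 CPM in the controls against 953, 993 and 988 CPM with the Prr33 guide. Each Prr33-gRNA library lay below the lowest control, with a log2 fold change of -0.32 (SE 0.04; edgeR adjusted p = 2.14e-08). Creb3, on the opposite strand, shares 360 of its 9801 exonic bases and was not called (-0.05, edgeR adjusted p = 0.524). Tln2 (ENSMUSG00000052698, minus strand, chr9:67217087-67559703) had 67.8, 73.1 and 61.3 CPM in the controls against 43.5, 49.3 and 48.0 CPM in Prr33-gRNA. Again no library crossed between the groups, and the log2 change was -0.52 (SE 0.07; edgeR adjusted p = 5.85e-08). Unlike Vcl, Tln2 stood against its surroundings: of 11 tested protein-coding genes within 1 Mb, 10 were higher and 0 lower, with a median of 0.45 (0.21 within 2 Mb).

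Tln1 supplied nearly all talin transcript. Per length, the ratio of Tln1 to Tln2 was 34.7, 31.1 and 36.3 in the controls against 41.0, 37.7 and 38.5 with the Prr33 guide. The ratio was higher in each Prr33-gRNA library, by 0.20 on the log2 scale (exact permutation test, two-sided p = 0.10, the smallest that 3 against 3 libraries allow). Summed talin was 127 ± 3.16 FPKM in the controls against 102 ± 2.30 FPKM with the Prr33 guide (SD, n = 3), with Tln2 at 2.87% ± 0.225 of the sum in the controls against 2.50% ± 0.106 in Prr33-gRNA. No stretch of 50 bases is shared between annotated transcripts of Tln1 and Tln2 or of Flna and Flnc, so a read that long cannot match a pair of these paralogs exactly.

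Of the filamin pair, Flnc was lower and Flna was not called. Flnc (ENSMUSG00000068699, plus strand, chr6:29433256-29461883), which binds Z-disc and sarcoglycan proteins in muscle, had 1898, 1845 and 1750.1 CPM in the controls against 1321, 1311 and 1296 CPM with the Prr33 guide. The groups were far apart, with a log2 fold change of -0.48 (SE 0.04; edgeR adjusted p = 1.57e-12), just short of the absolute value of 0.5 used above. Flna (ENSMUSG00000031328, minus strand, chrX:74223461-74249820), the filamin of most non-muscle cells, had 1049.7, 981 and 981 CPM in the controls against 919, 973 and 984 CPM with the Prr33 guide. Its groups overlapped, and the log2 fold change of -0.07 did not pass (SE 0.04; 95% interval -0.18 to 0.05; edgeR adjusted p = 0.182). Its sign turned, to 0.02, under scaling by total count.

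The ratio of Flna to Flnc per length was 0.550, 0.529 and 0.557 in the controls against 0.691, 0.738 and 0.755 in Prr33-gRNA libraries. It was higher in each Prr33-gRNA library by 0.42 on the log2 scale (exact permutation test, two-sided p = 0.10, the smallest possible), so the test cannot reach the threshold.

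Within the ILK complex, the parvin gene was the one linker that was higher. Parva (ENSMUSG00000030770, plus strand, chr7:112427505-112591692), which links ILK to actin, had 177, 171 and 190 CPM in the controls against 219, 223 and 223 CPM with the Prr33 guide. No library crossed, and the log2 change was 0.30 (SE 0.05; edgeR adjusted p = 1.05e-06). Its 8 tested protein-coding neighbours within 1 Mb had a median of -0.04. Parvb, its paralog, was not called (-0.08, edgeR adjusted p = 0.197), and Parva made up 38.9% ± 1.99 of summed parvin in the controls against 45.4% ± 1.03 in Prr33-gRNA (FPKM shares, SD, n = 3).

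Ilk (ENSMUSG00000030890, plus strand, chr7:105736592-105742925) had 122, 64 and 61 counts in the controls against 36, 58 and 39 with the Prr33 guide. That gave 6.60, 3.88 and 3.63 CPM against 1.96, 3.21 and 1.95 CPM, with Ctrl-gRNA replicate 1 well above the rest. On the log2 scale this was a change of -1.0 (SE 0.25; edgeR adjusted p = 0.00125) and was -0.66 without that library (edgeR adjusted p = 0.0459). The level is hard to read, because 2461 of the 2744 exonic bases of Ilk (89.7%) lie in exons of opposite-strand genes, 2106 in Taf10, for a subunit of the general transcription factor TFIID, and 355 in Rrp8. Taf10 and Rrp8 were higher (log2 fold changes of 0.22 and 0.23). Neither the strand setting nor the treatment of reads over 2 genes is given in the sources used here, so reads over shared exons may have been dropped or given to another gene. Of 4 other tested genes of the complex, 1 was higher and 1 lower (2 higher under scaling by total count). Lims1, the main PINCH gene at 194 ± 2.21 CPM in Ctrl-gRNA, was higher (0.29), Lims2 fell from 16.0 ± 1.93 to 0.675 ± 0.145 CPM, and Rsu1, for a PINCH-binding protein, was not called (0.09).

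Zyx changed little and Pxn was not called. Zyx (ENSMUSG00000029860, plus strand, chr6:42349630-42360213) had 624, 599 and 619 CPM in the controls against 541, 591 and 544 CPM with the Prr33 guide. The nearest libraries of the groups were 8 CPM apart, and the log2 change was -0.14 (SE 0.04; edgeR adjusted p = 0.00727). This call was lost under scaling by total count (-0.05), on both log2 FPKM scales (-0.13), and without Prr33-gRNA replicate 1 (-0.11). Epha1, on the opposite strand, shares 236 exonic bases (4.38%) with Zyx and had a log2 fold change of -2.70. Pxn (ENSMUSG00000029528, plus strand, chr5:115506676-115555987) had 175, 172 and 165 CPM in the controls against 168, 175 and 165 CPM with the Prr33 guide. The groups lay on top of each other (log2 fold change -0.01, SE 0.05, 95% interval -0.14 to 0.12; edgeR adjusted p = 0.844). Its paralog Tgfb1i1, for Hic-5, fell by 0.54 on the log2 scale, and Pxn took 59.1% ± 0.811 of the family in the controls against 67.4% ± 1.97 in Prr33-gRNA.

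**Figure D3:**
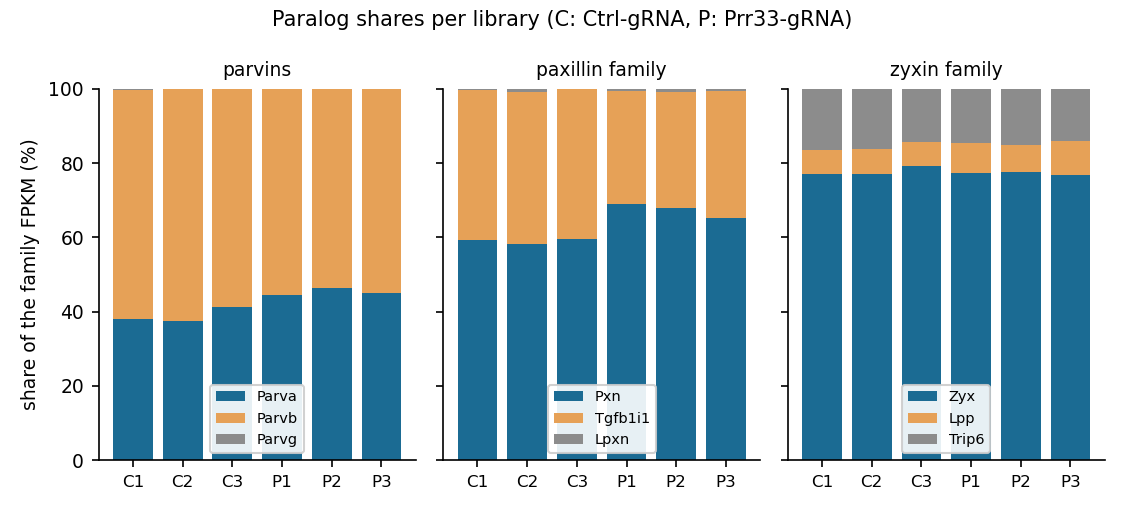
Share of summed FPKM taken by the plotted genes of the parvin, paxillin and zyxin families in every library (C1 to C3, Ctrl-gRNA, and P1 to P3, Prr33-gRNA). The zyxin panel holds Zyx, Lpp and Trip6 alone and leaves out Ajuba, Limd1 and Wtip. Parva took 37.6% to 41.2% of parvin in the controls against 44.5% to 46.5% with the Prr33 guide. Pxn took 58.2% to 59.7% against 65.2% to 69.0% of its family. Zyx took 76.9% to 79.3% of the sum of Zyx, Lpp and Trip6 over all libraries.

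The change of each linker was set beside that of the genes around it. For linkers not yet described in this way, the neighbours of Tln1 had a median of -0.23 and those of Flnc -0.18, and the latter turned to 0.04 within 2 Mb. The medians were 0.08 for Flna and -0.05 for Pxn. Those of Ilk and Zyx depended on the window: the Ilk median was -0.01 within 1 Mb and -0.43 within 2 Mb, and the Zyx median was 0.07 within 1 Mb, 0.19 within 2 Mb and -0.82 within 0.5 Mb. The 9 neighbours of Zyx within 1 Mb had a lower quartile of -1.55.

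**Figure D4:**
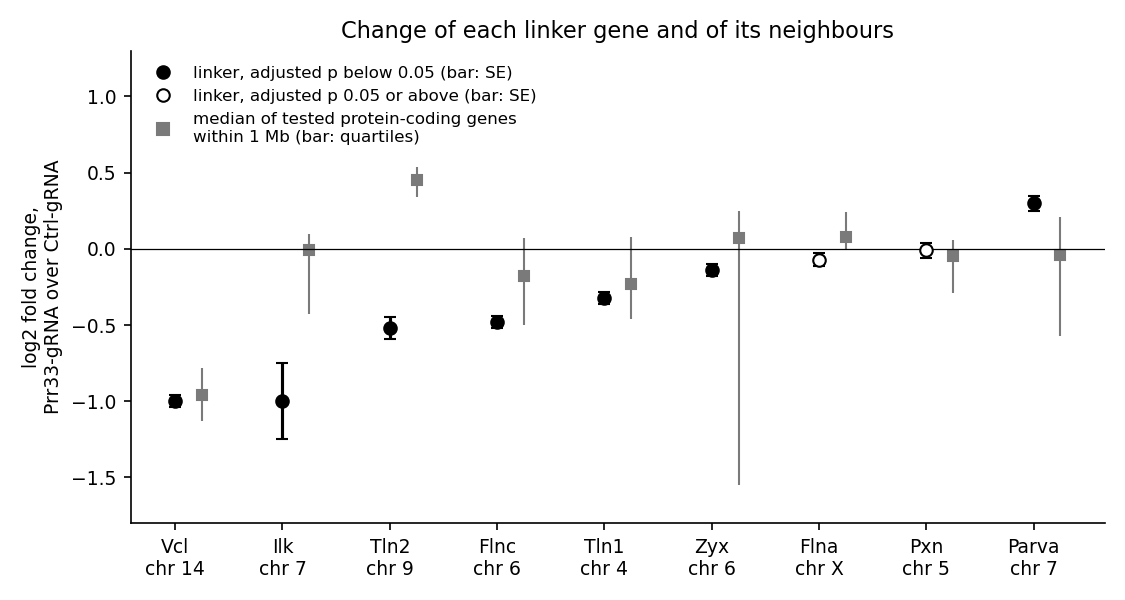
Log2 fold change of each linker (circles, bars are SE; filled where the adjusted p was below 0.05) and the median of its tested protein-coding neighbours within 1 Mb (squares, bars are quartiles), with the chromosome of each gene. Vcl lay near its neighbourhood (-1.0 and -0.96), whereas Tln2 (-0.52) lay opposite to its own (0.45).

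Partner genes were read from lists set out by role, of 135 genes in all, 123 of them tested: 60 were lower and 33 higher, and their median was -0.13. The 6 tested partners on chromosome 14 were all lower, with a median of -1.27. On the other chromosomes 54 of 117 were lower and 33 higher, with a median of -0.11. Called shares below are to be read against the 52.1% of all tested genes, 26.6% lower and 25.5% higher. Among tested genes averaging at least 50 CPM, the called share was 67.6%.

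Of 9 tested talin activators, kindlins and talin-binding KANK genes, 5 were higher and 2 lower, with a median of 0.22. Raph1, for lamellipodin, rose from 183 ± 1.69 to 329 ± 22 CPM (log2 fold change 0.84), and the small GTPase gene Rap1a (0.30) and Kank2 (0.22) also rose. Fermt2, for kindlin-2, which activates integrins together with talin, fell from 214 ± 7.94 to 109 ± 1.96 CPM (-0.97); it lies on chromosome 14. Kank1 fell by 1.45 on the log2 scale.

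Integrins themselves split evenly, with 4 of 14 tested genes higher, 4 lower and 6 not called (median 0.02), and 7 higher under scaling by total count. Itgb1, the beta chain that talin binds in muscle, was at 1695 ± 36.2 CPM in the controls against 1743 ± 27.5 CPM in Prr33-gRNA and was not called (0.04, edgeR adjusted p = 0.402). Itgav (0.75), Itgb8 (0.91) and Itga3 (0.40) rose, while Itga5, the fibronectin receptor chain, fell by 0.65, Itga4 by 2.33 and Itga6 by 0.13.

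Among 16 tested paxillin and focal adhesion kinase signalling genes, 7 were higher and 4 lower, with a median of 0.01. Nedd9 (0.50), Arhgef6 (0.67) and Dock1 (0.26), for a scaffold and exchange factors of small GTPases, rose. Tgfb1i1, Tns3 (-0.30) and the kinase gene Ptk2 (-0.13) fell. Tns1, for tensin 1 and the most abundant of the list, was not called (0.04). In the zyxin and Ena/VASP list, 6 of 11 were lower and 3 higher (median -0.23). Enah, for an actin elongation factor that zyxin recruits, fell from 573 ± 16.4 to 429 ± 14.2 CPM (-0.42). Its relative Vasp fell by 0.83, the LIM gene Csrp1 by 0.94 and Ajuba, on chromosome 14, by 1.12. Tes (0.61), Limd1 (0.25) and Lpp (0.19) rose.

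Cross-linkers and binding partners of vinculin or filamin had the lowest median of the partner lists, -0.59, with 15 of 21 lower and 4 higher. Ankrd1, for a muscle ankyrin repeat protein, fell from 1599 ± 18.0 to 852 ± 15.8 CPM (-0.91). Xirp2, for an actin-binding Xin repeat protein, fell from 302 ± 8.36 to 112 ± 6.25 CPM (-1.43), and Filip1, for a filamin A-interacting protein, fell by 1.28. Its relative Filip1l (0.74) and Pdlim5 (0.25) rose. The 2 non-muscle alpha-actinin genes differed in direction. Actn1 rose from 388 ± 10.6 to 496 ± 0.346 CPM (0.35), and Actn4 fell from 488 ± 21.9 to 392 ± 9.05 CPM (-0.31, edgeR adjusted p = 1.38e-07). In the list of linker turnover, 6 of 10 were lower and 1 higher (median -0.34). The small heat shock genes Hspb8, Hspb7 and Hspb1, whose products chaperone Z-disc proteins, fell (-0.60, -0.91 and -0.42), whereas their co-chaperone Bag3, which takes part in filamin removal under tension, rose (0.18). Capns1, the calpain small subunit, was not called (-0.02).

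On the dystrophin side of the costamere, 15 of 21 genes were lower and 5 higher, with a median of -0.33. Sgca, for a sarcoglycan, fell by 2.95 on the log2 scale and the ankyrin gene Ank1 by 1.5. Dag1, for the dystroglycan core, rose from 1284 ± 42.6 to 1616 ± 26.7 CPM (0.33), and the syntrophin genes Sntb2 (0.74) and Sntb1 (0.30) rose. The serum response factor list holds actin, myosin and other genes tied to the actin cytoskeleton, and cofactors of that factor. Of its tested genes, 8 of 18 were lower and 3 higher, with a median of -0.12 (5 lower under scaling by total count). Myl9 (-1.95), Myh9 (-0.46) and Acta2 (-0.29) fell, and Mrtfb (0.62), Fhl1 (0.22) and Cald1 (0.19) rose.

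**Figure D5:**
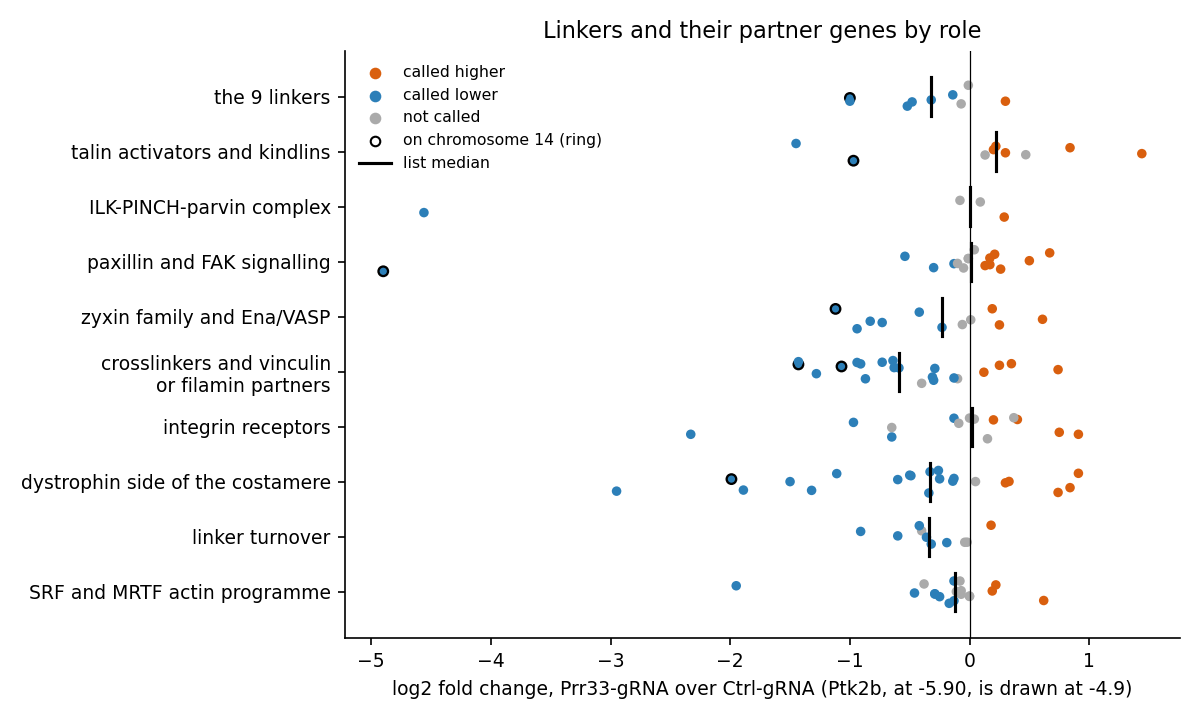
Log2 fold change of each tested gene in the lists by role (points, with vertical position jittered; rings mark chromosome 14, black bars the list median). Values beyond the axis are drawn at its edge; the list of crosslinkers and vinculin or filamin partners lies furthest left, with a median of -0.59, and that of talin activators and kindlins furthest right, with 0.22.

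For each linker, the gene most alike across libraries was taken as the one with the highest Pearson correlation of log2 CPM over the 6 libraries, among 9532 genes averaging at least 10 CPM. These were Oas1g for Vcl (0.9999), Cacna1s for Flnc (0.9995), Anxa11 for Tln1 (0.9992), Dnttip2 for Parva (0.9985), Nfu1 for Tln2 (0.9957), Rplp1 for Zyx (0.9936), Tpgs1 for Ilk (0.9930), Hgh1 for Pxn (0.9907) and Sh3pxd2b for Flna (0.9827). All pairs share the same 6 libraries in 2 groups, and many genes reached such values where a linker differed between groups: 1519 genes exceeded 0.95 with Vcl and 1505 with Flnc, but 12 with Flna and 15 with Pxn. The correlation takes no account of size: the log2 fold change of Anxa11 was -1.83 beside -0.32 for Tln1, and that of Dnttip2 was 0.08 beside 0.30 for Parva. Oas1g, at a fitted -11.64 that depends on the prior count, lay far from the -1.0 of Vcl. With such a change, Oas1g reached a mean of 10 CPM through the controls alone. Its correlation of 0.9999 with Vcl mainly restates the step between the 2 groups.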

How the data were processed

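Whole-number counts per gene make up 1 table that the authors deposited, and FPKM values per gene were deposited by the authors in a second table. CASAVA, featureCounts 1.5.0-p3, HISAT2 2.0.5 and the build mm10 are named per the submitters' processing notes; roles, annotation release and strand setting are not given in the sources used here. Columns were matched to samples by name. The members and gene lists were chosen with earlier results of these data known. Counts were fitted with edgeR 4.0.16 in R 4.3.3 (glmQLFit with robust fitting, filterByExpr, TMM, 2 groups, no covariate), which kept 14651 genes, 9 of 9 linkers among them. The procedure was tested on simulated data in which far fewer genes changed than were called here. That test does not cover a shift as broad as in these libraries. The SE is the absolute log2 fold change over the square root of F, and 95% intervals use 4 residual degrees of freedom. FPKM served for levels between genes and for ratios. Named partner genes were, per list, up to 3 per direction with the lowest adjusted p at a mean of at least 5 CPM, and the most abundant gene, besides Prr33, the gene most alike to each linker, and genes that share exons or family with a linker. The 50 CPM background, the split of partners by chromosome, the order of levels and the naming of Actn4 were added after the values were seen. The CPM value of 3 counts covers counting error only. Depth gave 3 counts a value of 0.150 to 0.182 CPM. Replicates were compared pairwise for duplicates, and their chi-square per gene of 2.89 to 5.68 exceeded sampling noise. Alternatives were RLE, total-count scaling, DESeq2 1.42.0, limma-voom (limma 3.58.1), other filters, protein-coding genes only, chromosome 14 left out, log2(FPKM + 1) and log2(FPKM + 0.1), a replicate block and leaving out each library. Exon overlap was taken from GENCODE M21 (GRCm38), where 54851 of 55144 matched IDs had the same start and end as in the table. Protein sequences were not used here, and some genes that the naming rule picks are not reported here. Figures were drawn with matplotlib 3.10.9.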

Additional observations from a re-analysis of the deposited data

How the results depend on the processing

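Across 17 alternative fits (16 for Vcl), Vcl, Tln1, Tln2, Flnc, Ilk and Parva kept their direction and their call, with log2 fold changes of -1.01 to -0.91, -0.33 to -0.23, -0.58 to -0.39, -0.51 to -0.40, -1.27 to -0.52 and 0.27 to 0.39. Zyx was not called on log2(FPKM + 0.1) or log2(FPKM + 1) (-0.13 on each), under scaling by total count (-0.05), or without Prr33-gRNA replicate 1, and spanned -0.18 to -0.11 in the fits without 1 library. Flna, uncalled throughout, turned to 0.02 and Pxn to 0.08 under scaling by total count, and Pxn ranged from -0.03 to 0.01 over the fits without 1 library. That scaling also gave 2 genes of the ILK list higher, 7 integrin genes higher and 5 serum response factor genes lower. Leaving out chromosome 14 removes Fermt2 and left 1 gene lower among talin activators and kindlins. Markers of other cell types called lower numbered 1 without a low-count filter, and 0 to 1 over the fits without 1 library. The median of the neighbours moved with the window for several linkers. Within 2 Mb it was 0.21 for Tln2, -0.43 for Ilk, 0.04 for Flnc and 0.12 for Parva (within 1 Mb 0.45, -0.01, -0.18 and -0.04). Within 0.5 Mb it was -0.82 for Zyx (0.07) and 0.04 for Pxn (-0.05). Of 626 alternative values, 608 were classed as unchanged, and the causes of the others were not tested. For fold changes, ratios and neighbours this meant a kept call or a move below the spread (for neighbours, the spread among genes). Counts of called genes have no such spread, and some classed as unchanged did differ. Lower genes on the dystrophin side numbered 15 in the main fit and 12 without a low-count filter. Linkers called lower numbered 6 in the main fit and 5 under scaling by total count. The deviations of libraries that share a number correlated at -0.012, -0.011 and 0.023, so no pairing was seen. These values do not show whether cultures or days were shared. Adding the replicate block gave 3811 higher and 3975 lower genes, 7586 of them called without it too, and 6 linkers lower and 1 higher. Ilk had 36 to 122 counts per library.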
